A study of Homo sapiens
Mus musculus with 24 samples.

Results

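The genes described here are 5 murine transcripts listed as host mast cell genes, namely Cma1, Mcpt4, Cpa3, Tpsb2 and Kit. The first 4 encode granule proteases, and Kit, which other cells also carry, did not follow them here. They were measured in xenograft tumors whose cancer cells are human and whose stroma is murine. The 5 were taken by symbol from the murine table of normalized counts, which lists 16667 genes, and all 5 were found. Their identifiers are ENSMUSG00000022225 (Cma1), ENSMUSG00000061068 (Mcpt4), ENSMUSG00000001865 (Cpa3), ENSMUSG00000033825 (Tpsb2) and ENSMUSG00000005672 (Kit).

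Mast cells are tissue-resident granulocytes that leave the marrow as progenitors and mature in connective tissue under stem cell factor, the ligand of the receptor tyrosine kinase KIT. Their granules hold histamine, heparin and large amounts of neutral proteases, chiefly chymases, tryptases and carboxypeptidase A3, which are released when the high-affinity IgE receptor or other receptors are engaged. They do not need T or B lymphocytes to develop, and they are found around vessels in skin, fat, muscle fascia and the margin of many tumors. KIT is not restricted to mast cells, because blood progenitors, melanocytes and some endothelial and epithelial cells also carry it.

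The tumors came from B6/Rag1KO mice, which lack mature T and B lymphocytes, injected with MDA-MB-231 cells, a line derived from a human triple-negative breast adenocarcinoma. The labels of all 5 groups give an age of 14 weeks and 10 weeks on the diet at injection. The study's text gives an older age and a longer time on the diet. All mice of the 4 obese groups ate a high-fat diet. CTRL mice (n = 4) received weekly saline injections, Chemo mice (n = 5) received weekly doxorubicin and cyclophosphamide, MC mice (n = 5) ate the high-fat diet with moringa concentrate, and MC + Chemo mice (n = 6) had the moringa concentrate diet with the same injections of both drugs. Lean mice (n = 4) were a diet control without an intervention. Each of the 24 libraries is the 3' RNA profile of 1 tumor from 1 mouse, and libraries are named below by group and mouse number. Tumor MC + Chemo 5 is placed in that group by its title while another of its labels reads as the moringa diet alone. RNA of Lean 3, MC 41 and MC 42 went through an extra cleanup.

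Murine counts ran from 3664056 to 9892470 per library, which was 26.0 to 52.2% of all counts, and the members were covered by few of them. Over the 24 libraries Cma1 had 2846 counts, Mcpt4 1290, Cpa3 2769, Tpsb2 3219 and Kit 1361. The lowest library held 6 counts of Cma1, 1 of Mcpt4, 7 of Cpa3, 9 of Tpsb2 and 22 of Kit, and the highest held 453, 190, 503, 435 and 108. No member was at 0 in any library. All 5 passed the filter on low counts. Levels below are normalized counts, that is, counts divided by a size factor of each library, and they are compared between tumors for 1 gene at a time.

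Cma1 encodes the mast cell chymase of connective tissue. Its normalized counts were 64.6, 77.7, 48.9 and 35.0 in Lean 3, 21, 24 and 54, and 192.1, 45.4, 74.3 and 22.0 in CTRL 17, 31, 44 and 70. In Chemo 19, 30, 33, 34 and 67 they were 18.0, 22.1, 77.7, 162.6 and 23.8, and in MC 6, 41, 42, 48 and 59 they were 23.8, 99.8, 119.8, 241.9 and 49.2. In MC + Chemo 5, 25, 43, 47, 50 and 52 they were 192.2, 11.6, 383.1, 262.2, 11.3 and 314.3, with a median of 227. The MC + Chemo group thus held 4 of the 5 highest tumors and the 2 lowest of the whole series, with no tumor of that group between 11.6 and 192.2. The group means were 196 ± 156 in MC + Chemo, 107 ± 84.7 in MC, 83.4 ± 75.5 in CTRL, 60.8 ± 62.0 in Chemo and 56.5 ± 18.6 in Lean (SD, with the n given above), and every pair of neighbours in that order overlapped.

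Mcpt4 encodes mouse mast cell protease 4, the chymase regarded as the functional counterpart of human chymase. It read 55.4, 33.7, 21.1 and 23.8 in Lean 3, 21, 24 and 54, and 70.1, 24.1, 48.7 and 6.9 in CTRL 17, 31, 44 and 70. The Chemo tumors 19, 30, 33, 34 and 67 read 3.6, 18.6, 27.2, 58.6 and 11.4, and the MC tumors 6, 41, 42, 48 and 59 read 23.8, 49.0, 72.7, 107.6 and 42.7. MC + Chemo 5, 25, 43, 47, 50 and 52 read 75.5, 1.9, 160.7, 101.5, 5.7 and 127.7, with a median of 88.5. The same gap ran through the MC + Chemo group, where 4 tumors exceeded every CTRL tumor and the others, 25 and 50, were below every CTRL tumor. The means were highest in MC + Chemo (78.8 ± 64.6), followed by MC (59.2 ± 32.2), CTRL (37.5 ± 27.7), Lean (33.5 ± 15.6) and Chemo (23.9 ± 21.3), with overlap between all neighbours.

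Cpa3, the gene of carboxypeptidase A3, which trims peptides inside the granule, had normalized counts of 99.8, 89.0, 24.9 and 32.5 in Lean 3, 21, 24 and 54 and of 146.0, 50.2, 71.8 and 18.9 in CTRL 17, 31, 44 and 70. Chemo 19, 30, 33, 34 and 67 had 15.6, 26.7, 94.8, 173.2 and 32.3. MC 6, 41, 42, 48 and 59 had 36.5, 92.5, 149.0, 230.7 and 58.3. In the Chemo group 3 of 5 tumors were at 32.3 or below, while all 5 MC tumors were at 36.5 or above, and the groups still overlapped. MC + Chemo 5, 25, 43, 47, 50 and 52 had 165.5, 13.5, 425.3, 196.6, 23.5 and 210.4, with a median of 181. The means were 172 ± 151 in MC + Chemo, 113 ± 78.1 in MC, 71.7 ± 54.1 in CTRL, 68.5 ± 66.2 in Chemo and 61.5 ± 38.3 in Lean, each neighbour within the spread of the next.

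Tpsb2 encodes a β-tryptase, mast cell protease 6, which is stored bound to heparin. Lean 3, 21, 24 and 54 had 125.0, 108.6, 51.7 and 45.0, and CTRL 17, 31, 44 and 70 had 131.6, 84.0, 160.2 and 8.8. Chemo 19, 30, 33, 34 and 67 had 16.8, 29.1, 213.8, 155.3 and 17.1, so that the Chemo tumors fell into 3 low and 2 high ones with nothing between 29.1 and 155.3. MC 6, 41, 42, 48 and 59 had 42.9, 127.9, 151.9, 255.6 and 95.8. MC + Chemo 5, 25, 43, 47, 50 and 52 had 247.9, 17.4, 367.8, 244.2, 14.6 and 237.7, with a median of 241. The means were 188 ± 142 in MC + Chemo, 135 ± 78.9 in MC, 96.1 ± 66.2 in CTRL, 86.4 ± 92.1 in Chemo and 82.6 ± 40.2 in Lean, with overlap throughout. Related genes sit beside several of these proteases (Tpsab1 beside Tpsb2, and the other chymase genes beside Cma1 and Mcpt4). How the counting treated reads that match more than a single related gene is not given in the sources used here.

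Kit behaved differently from the proteases, with a narrower range and its highest levels in Lean tumors. Lean 3, 21, 24 and 54 had 68.8, 85.2, 85.3 and 75.0, and CTRL 17, 31, 44 and 70 had 21.1, 60.8, 48.7 and 67.9. Chemo 19, 30, 33, 34 and 67 had 39.6, 33.7, 70.6, 63.4 and 59.9, and MC 6, 41, 42, 48 and 59 had 49.2, 28.1, 52.4, 48.2 and 42.7. MC + Chemo 5, 25, 43, 47, 50 and 52 had 55.7, 54.1, 55.0, 47.5, 54.2 and 22.9, with a median of 54.1. Every Lean tumor lay above every CTRL, MC and MC + Chemo tumor, and Chemo 33 was the only obese tumor above Lean 3. The means were 78.6 ± 8.11 in Lean, 53.4 ± 15.9 in Chemo, 49.6 ± 20.6 in CTRL, 48.2 ± 12.8 in MC + Chemo and 44.1 ± 9.62 in MC, and the 4 obese groups overlapped one another.

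**Figure D1:**
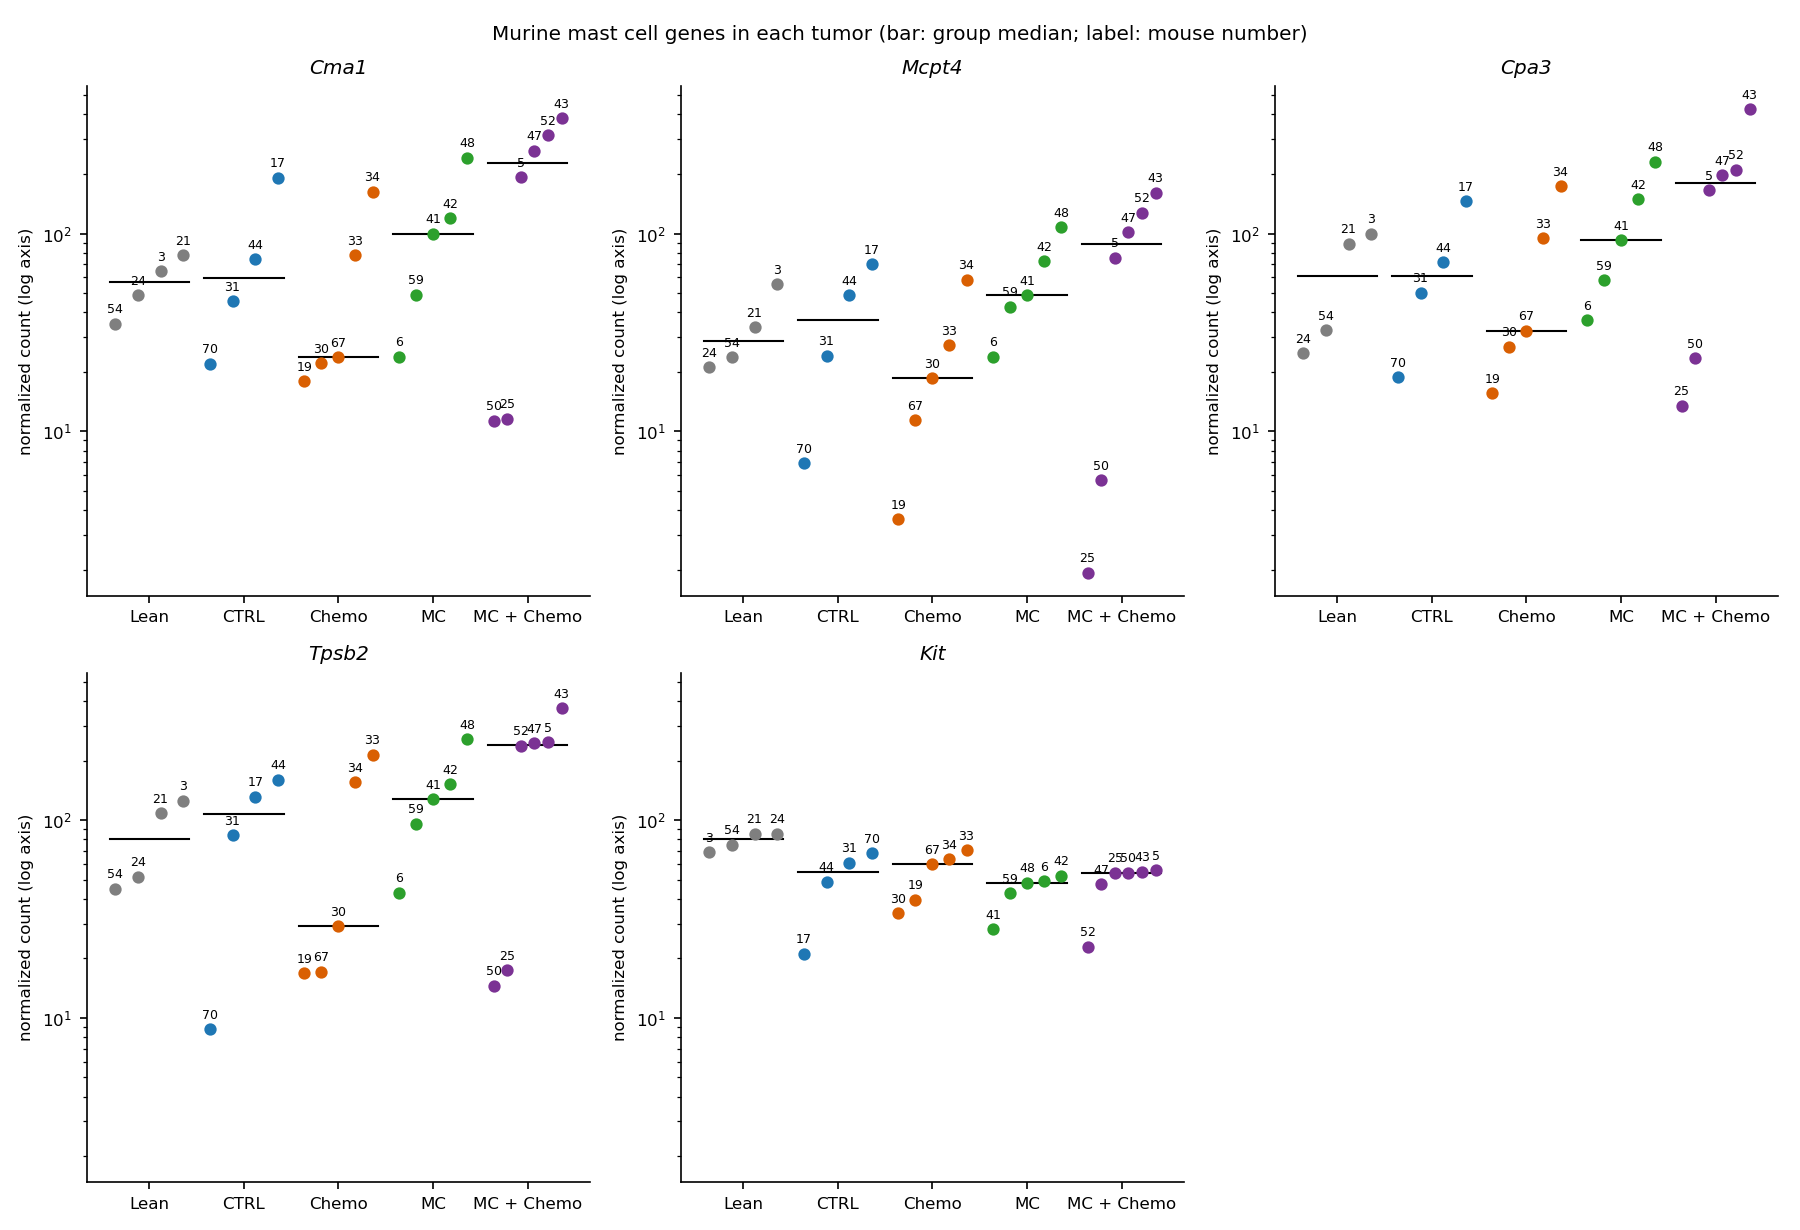
Normalized count of each gene in each of the 24 tumors (vertical log axis), grouped by treatment (horizontal axis), with the mouse number above each point and a bar at the group median. In the 4 protease panels MC + Chemo 25 and 50 sit far below the other 4 tumors of their group, whereas in the Kit panel only MC + Chemo 52, at 22.9, stands below its group.

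The proteases differed more from mouse to mouse within a group than most murine genes. The highest tumor exceeded the lowest by 33.8-fold for Cma1, 83.2-fold for Mcpt4, 31.5-fold for Cpa3 and 41.8-fold for Tpsb2, and by 4.04-fold for Kit. The SD within groups, on the log2(normalized count + 1) scale, was 1.57 for Cma1, 1.58 for Mcpt4, 1.42 for Cpa3 and 1.61 for Tpsb2, against 0.472 for Kit. Among the 13860 murine genes with a mean normalized count of at least 10, these values stood at percentiles 98.2, 98.2, 97.8 and 98.3 for the proteases and at 60.2 for Kit. The share of variance between groups, not adjusted for the number of groups, was 9.37 to 12.3% for the 4 proteases and 31.8% for Kit. For each protease the SD within groups was larger than the SD over all libraries, so grouping did not narrow its spread. For Kit the SD within groups was the smaller one. In a bulk tumor fewer mast cells and less RNA per mast cell cannot be told apart.

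The same tumors were high or low for all 4 proteases. Over the 24 libraries the 6 pairs of proteases had Pearson's r of 0.92 to 0.96 and Spearman's rho of 0.93 to 0.98 on the log2(normalized count + 1) scale, each at a permutation p of 1e-05, the smallest that 100000 resamples can give (adjusted over the 10 pairs of members, 1.67e-05). The r was 0.90 to 0.96 without the 2 libraries farthest from the median, 0.92 to 0.96 for deviations from the group means, and 0.92 to 0.97 over the 21 libraries without extra RNA cleanup. Tumor MC + Chemo 43 ranked highest for each protease. Chemo 34, MC 48 and MC + Chemo 5, 43, 47 and 52 were among the 8 highest tumors for all 4, and CTRL 70, Chemo 19 and MC + Chemo 25 and 50 were among the 5 lowest for all 4. The log2 ratio of any 2 proteases varied with an SD of 0.42 to 0.61.

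Kit did not follow them. Its r with Cma1 was -0.26, with Mcpt4 -0.24, with Cpa3 -0.22 and with Tpsb2 -0.16 (permutation p adjusted over the 10 pairs 0.313 to 0.458, rho -0.15 to -0.25), and within groups -0.13 to -0.24. Without the 2 farthest libraries r lay between -0.37 and -0.09. Of the 6 tumors high in all 4 proteases, only Chemo 34 was also among the 8 highest for Kit. The log2 ratio of a protease to Kit had an SD of 1.57 to 1.74. Ranked by r with Cpa3 among 13859 genes, Cma1, Mcpt4 and Tpsb2 were at places 1, 2 and 3, and Kit was at place 10658.

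**Figure D2:**
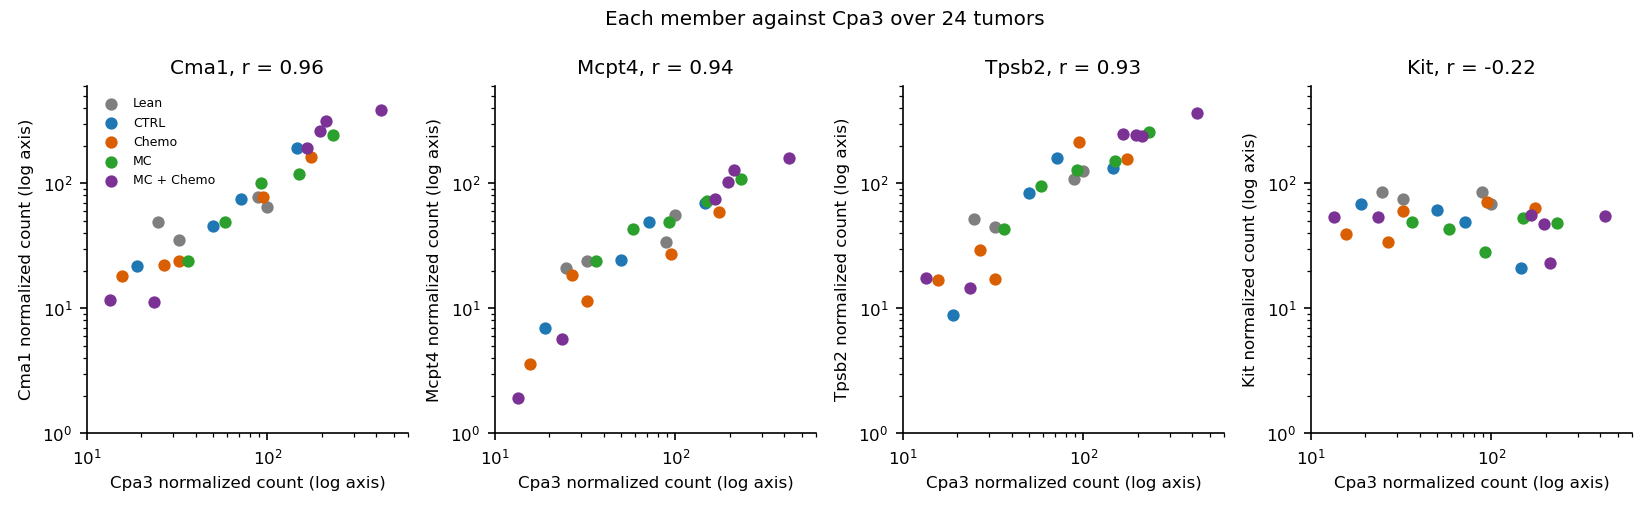
Each member (vertical log axis, normalized count) against Cpa3 (horizontal log axis, normalized count) over 24 tumors, colored by group, with Pearson's r of the log2 values in each title. Cma1, Mcpt4 and Tpsb2 rise with Cpa3 along a line that all 5 groups share (r 0.92 to 0.96 among all protease pairs), while Kit stays flat (r -0.22).

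Chemotherapy alone was compared with vehicle in obese hosts to see what the 2 drugs do to the host compartment. No member was called at an adjusted p under 0.05 in the edgeR quasi-likelihood test, where 0% of the 15011 murine genes tested were called, and 0 of 5 had an unadjusted p under 0.05, against 4.53% of all genes. The log2 fold change was -0.43 for Cma1 (95% interval -2.27 to 1.41), -0.60 for Mcpt4 (-2.35 to 1.16), -0.04 for Cpa3 (-1.73 to 1.65), -0.12 for Tpsb2 (-1.95 to 1.71) and 0.11 for Kit (-0.57 to 0.78), with adjusted p of 1.00 by edgeR. DESeq2 called none of the 5, and 0.132% of all genes. These intervals leave room for a several-fold difference of the proteases in either direction.

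The moringa concentrate diet against vehicle gave positive protease values that did not pass the test. The edgeR log2 fold changes of MC over CTRL were 0.39 for Cma1 (SE 0.88, adjusted p 0.898), 0.71 for Mcpt4 (SE 0.83, adjusted p 0.770), 0.70 for Cpa3 (SE 0.81, adjusted p 0.768), 0.53 for Tpsb2 (SE 0.88, adjusted p 0.853) and -0.16 for Kit (SE 0.32, adjusted p 0.882). None of the 5 had an unadjusted p under 0.05, against 11.8% of all genes, and DESeq2 called 0 of 5 members and 1.76% of all genes. The median over the 4 proteases was 0.61, beside 0.00 over all genes tested.

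MC + Chemo over CTRL also gave positive protease values that did not pass the test. They were 1.23 for Cma1 (95% interval -0.57 to 3.04), 1.10 for Mcpt4 (-0.59 to 2.78), 1.28 for Cpa3 (-0.38 to 2.94) and 0.99 for Tpsb2 (-0.80 to 2.79) on the log2 scale, and -0.06 for Kit (-0.70 to 0.59). By edgeR the adjusted p ran from 0.517 for Cpa3 to 0.956 for Kit. No member had an unadjusted edgeR p under 0.05, against 12.4% of all genes, and 3 of the 5 had a log2 fold change of at least 1, as did 4.22% of all genes. Those 3 are proteases, which were high or low in the same tumors, so they are not independent observations. DESeq2 called 0 of 5 members and 1.14% of all genes. These 3 comparisons share the 4 CTRL tumors, in which Cpa3 alone ranged from 18.9 to 146.0.

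The moringa diet added to chemotherapy, against chemotherapy alone, gave the highest median over the 4 proteases of the 7 comparisons, 1.49 on the log2 scale beside 0.02 over all genes, and again no call after adjustment. Mcpt4 had a log2 fold change of 1.69 (SE 0.77, 95% interval 0.09 to 3.30, a fold of 3.24) with an unadjusted edgeR p of 0.0399 and an adjusted p of 0.430. Cma1 had 1.66 (SE 0.82, -0.04 to 3.36, a fold of 3.16), with 0.0549 before and 0.460 after adjustment. Cpa3 had 1.31 (SE 0.74, adjusted p 0.525) and Tpsb2 1.11 (SE 0.80, adjusted p 0.623), while Kit had -0.16 (SE 0.29, adjusted p 0.867). Thus 1 of 5 members had an unadjusted edgeR p under 0.05, against 11% of all genes, and 4 of 5 had a log2 fold change of at least 1, against 3.54% of all genes. Those 4 are the proteases, which were high or low in the same tumors, so they are not independent observations. No gene of the 15011 was called by edgeR after adjustment, and DESeq2 called 0.294% of all genes and no member (Mcpt4 unadjusted p 0.0365 and adjusted p 0.372). On the mean log2(normalized count + 1), which gives the 2 low MC + Chemo tumors more weight, the differences were 1.221 for Cma1, 1.09 for Mcpt4, 1.07 for Cpa3 and 1.09 for Tpsb2, and the exact permutation p ran from 0.310 for Cma1 to 0.390 for Mcpt4. In the same comparison all 10 skeletal muscle genes and all 10 adipocyte genes of the marker lists read higher in MC + Chemo, with median log2 fold changes of 4.84 and 2.38. Without the 6 tumors high in muscle genes, a selection added after the data had been seen, the edgeR values were 0.66 for Cma1, 0.83 for Mcpt4, 0.06 for Cpa3, -0.17 for Tpsb2 and -0.45 for Kit. That selection took out MC + Chemo 5, 43 and 47, all high in the 4 proteases. It left MC + Chemo 25, 50 and 52 in the group, of which 25 and 50 were low in all 4. A part of muscle in these values therefore cannot be told apart from the choice of tumors.

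Chemotherapy added to the moringa diet, and the difference between the moringa effects with and without chemotherapy, moved no member past the test. For MC + Chemo over MC the log2 fold changes were 0.84 for Cma1, 0.39 for Mcpt4, 0.58 for Cpa3, 0.46 for Tpsb2 and 0.11 for Kit, with edgeR adjusted p from 0.740 to 0.928, and 0 of 5 had an unadjusted p under 0.05, against 9.87% of all genes. The difference of the effects was 1.27 for Cma1 (SE 1.18), 0.99 for Mcpt4 (SE 1.11), 0.62 for Cpa3 (SE 1.08), 0.58 for Tpsb2 (SE 1.17) and 0.00 for Kit (SE 0.42), with adjusted p from 0.780 to 0.999 by edgeR and 0 of 5 under 0.05 unadjusted, against 6.87% of all genes. DESeq2 called 0 of 5 in both, and 0.0785% and 0% of all genes.

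Lean hosts were compared with CTRL as the diet control. Kit read higher in every Lean tumor than in every CTRL tumor, a difference that did not pass the adjusted test, and the proteases overlapped. Lean over CTRL gave Kit a log2 fold change of 0.66 (SE 0.31, 95% interval 0.01 to 1.31, a fold of 1.58) with an unadjusted edgeR p of 0.0457 and an adjusted p of 1 over 15029 genes. This was 1 of 5 members under 0.05 unadjusted, against 3.11% of all genes. DESeq2 gave an unadjusted p of 0.0384 and an adjusted p of 1, and it called 0.00601% of all genes. The Lean and CTRL tumors did not overlap for Kit, which held in the same direction for 1.46% of all genes. CTRL 17, at 21.1, carried part of this value, which was 0.41 without that tumor. The proteases had values of -0.53 for Cma1, -0.11 for Mcpt4, -0.18 for Cpa3 and -0.18 for Tpsb2, with SE of 0.84 to 0.89.

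Exact permutation tests of all 10 pairs of groups for the 5 genes, 50 tests on the log2(normalized count + 1) scale, gave 4 two-sided p under 0.05, each for Kit in Lean tumors against an obese group. The difference in mean log2, obese group minus Lean, was -0.74 for MC + Chemo (p 0.00476), -0.84 for MC (p 0.00794), -0.60 for Chemo (p 0.0397) and -0.77 for CTRL (p 0.0286). All but the Chemo value were the smallest p those group sizes allow. Adjusted over the 50 tests the p were 0.198 for MC + Chemo and MC, 0.496 for Chemo and 0.476 for CTRL, so that none passed. Non-overlap with Lean higher, seen for Kit against CTRL, MC and MC + Chemo, held for 0.612% of all genes against MC and 2.09% against MC + Chemo. These tests share the 4 Lean tumors, and the Lean mice differed from the others in diet and in having no intervention.

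**Figure D3:**
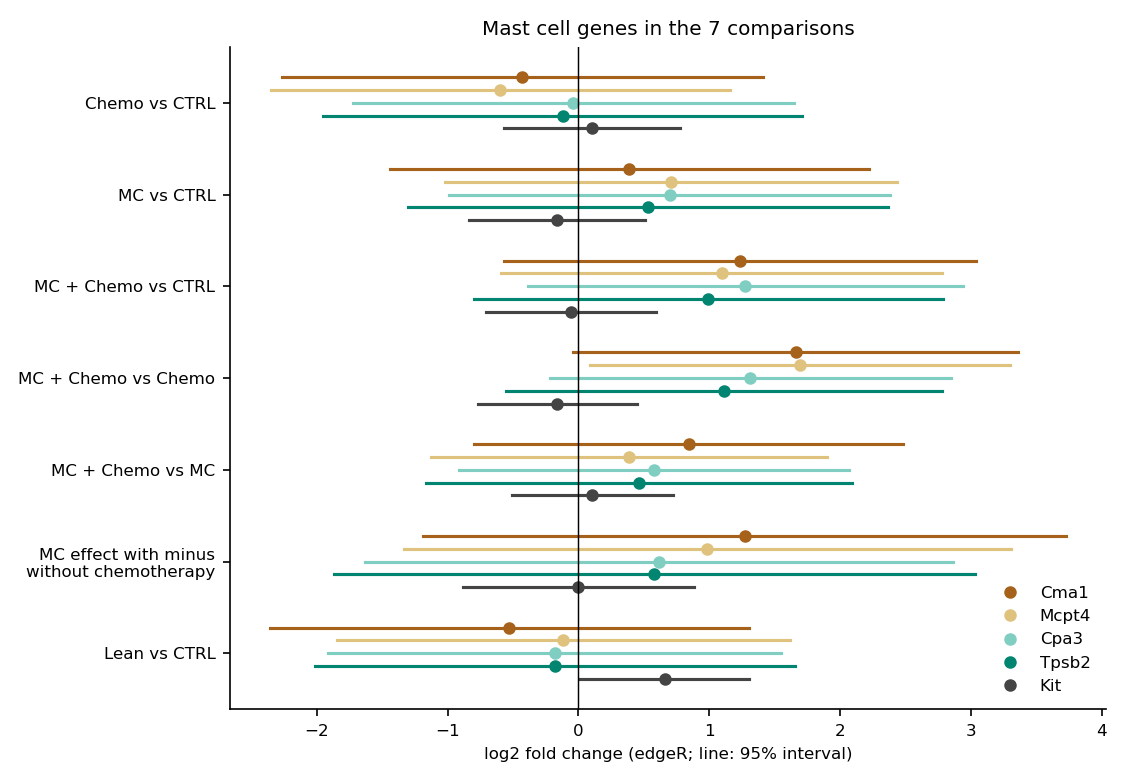
The log2 fold change (horizontal axis) of each gene in the 7 comparisons (vertical axis), as points with the 95% interval of the edgeR fit as lines. Only Mcpt4 in MC + Chemo vs Chemo (0.09 to 3.30) and Kit in Lean vs CTRL (0.01 to 1.31) have intervals clear of 0, and the Kit intervals are the shortest in every comparison.

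Other genes of mast cells were counted from lists of granule and amine genes, receptors, enzymes of lipid mediators and steroids, and transcription factors, 36 genes in all besides the members, of which 29 were in the murine table. Tpsg1, Mcpt2, Mcpt9, Cma2, Mrgprb2, Cyp11a1 and Gata1 were not found in it by symbol. Of the 29, 24 had enough counts to be tested, and of these 16 read higher and 8 read lower in MC + Chemo than in Chemo, with a median log2 fold change of 0.23 beside 0.02 over all genes. Srgn (0.56), the core protein to which heparin is attached, Tph1 (1.98), the first enzyme of serotonin synthesis in mast cells, and Alox5 (0.86), which starts leukotriene synthesis, had positive values, and P2rx1 (-1.09), an ATP-gated channel, had a negative one, each at an unadjusted edgeR p under 0.05 only, which is 4 of 24 beside 11% of all genes. Without MC + Chemo 43, Tph1 was 1.39 and Alox5 0.73, and without Chemo 33 Srgn was 0.41, each with an unadjusted edgeR p over 0.05. P2rx1 was at most -0.88 without any 1 tumor. Tph1 had a mean normalized count of only 6.47 and was at 0 in 5 libraries. In MC + Chemo vs Chemo, 9 of 10 macrophage marker genes also read higher, with a median log2 fold change of 0.23 and 0 at an unadjusted edgeR p under 0.05. The part of macrophages in the Srgn and Alox5 values was not tested. Against CTRL, MC + Chemo had 15 higher and 9 lower, with Tph1 (3.28) alone under 0.05 unadjusted, 1 of 24 beside 12.4% of all genes. None of the 24 was called after adjustment by edgeR in any of the 7 comparisons.

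The remaining comparisons gave medians near 0 for these 24 genes. The median log2 fold change was -0.02 for Chemo vs CTRL, 0.01 for MC vs CTRL, 0.09 for MC + Chemo vs MC, 0.17 for the difference of moringa effects and 0.02 for Lean vs CTRL. At an unadjusted edgeR p under 0.05, MC vs CTRL had Gzmb, a granzyme, at -1.61 (-0.83 without CTRL 17), 1 of 24 beside 11.8% of all genes. MC + Chemo vs MC had Srgn at 0.60, Alox5 at 1.01 and Alox5ap, the activating protein of that lipoxygenase, at 0.56, with Mcpt1, a chymase of mucosal mast cells, at -3.61 and the transcription factor Tal1 at -0.62, 5 of 24 beside 9.87% of all genes. The Mcpt1 value rests on MC 6 and was 0.76 without that tumor. Srgn was 0.49 without MC 6 and Tal1 was -0.47 without MC 42, each with an unadjusted edgeR p over 0.05. The difference of moringa effects had Srgn at 0.92 and P2rx1 at -1.46, 2 of 24 beside 6.87% of all genes. These values were 0.72 without CTRL 70 and -1.06 without MC 42, each with an unadjusted edgeR p over 0.05. Lean vs CTRL had Hdc, which makes histamine, at 1.17 and Slc18a2, which loads it into granules, at -1.58, 2 of 24 beside 3.11% of all genes. The Slc18a2 value was -0.39 without CTRL 44 and the Hdc value was 0.90 without CTRL 17, each with an unadjusted edgeR p over 0.05. Chemo vs CTRL had 0 of 24 by edgeR, beside 4.53% of all genes. Leaving out single libraries for these genes was added after the data had been seen. In MC + Chemo vs MC, 9 of 10 macrophage marker genes also read higher, with a median log2 fold change of 0.33. Of these, 1 had an unadjusted edgeR p under 0.05, against 9.87% of all genes. The part of macrophages in the Srgn, Alox5 and Alox5ap values was not tested.

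Across tumors a part of this list followed the proteases. Of the 22 listed genes with a mean normalized count of at least 10, 4 had a positive r with Cpa3 at an adjusted permutation p under 0.05 over 58 relations, a set of tests added after the data had been seen. They were Il1rl1, the IL-33 receptor chain, with r 0.77 (rho 0.74, adjusted p 0.002), Alox5 with 0.72 (rho 0.69, adjusted p 0.003), Stat5b, a transcription factor downstream of KIT and cytokine receptors, with 0.68 (rho 0.66, adjusted p 0.004), and Ltc4s, the leukotriene C4 synthase, with 0.55 (rho 0.49, adjusted p 0.034). Without the 2 libraries farthest on Cpa3, MC + Chemo 43 and 25, these r were 0.66, 0.62, 0.57 and 0.49, and over the libraries without extra cleanup they were 0.79, 0.79, 0.75 and 0.64. Il1rl1 ran from 9.66 in MC + Chemo 25 to 121.8 in MC + Chemo 43, the tumors with the lowest and the highest Cpa3. The median r over the 22 genes was 0.21. An r over 0.5 with Cpa3, which 4 of the 22 had, was held by 3.54% of 12257 murine genes with a symbol and a mean normalized count of at least 10.

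Other listed genes did not pass the adjustment with Cpa3. Srgn had an r of -0.09, Fcer1g, the signaling chain of Fc receptors, 0.10, Hdc -0.20 and Slc18a2 0.42 (rho 0.52), with adjusted p of 0.159 to 0.759. Mcpt1 ran from 0 in 10 libraries to 358.8 in MC 6, with r -0.43 (adjusted p 0.159), and -0.52 (adjusted p 0.048) within groups. The mucosal chymase was thus highest in the MC tumor that was lowest in all 4 member proteases. With Kit, Hdc had a positive r of 0.61 and Ltc4s a negative r of -0.61, both at an adjusted p of 0.016, and these became 0.33 and -0.45 without CTRL 17 and MC + Chemo 52. Tal1 had an r of 0.51 with Kit (adjusted p 0.079), of 0.58 within groups (adjusted p 0.028), and of 0.05 without the same 2 tumors. An r over 0.5 with Kit was held by 4.68% of 12257 murine genes.

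The 7 listed genes with a mean normalized count under 10 are given as a description only, since a few reads decide their values. The r with Cpa3 was 0.87 for Fcer1a and 0.64 for Ms4a2, the ligand-binding and the β chain of the high-affinity IgE receptor, 0.77 for Tph1, 0.69 for Mrgprb1, 0.65 for Tpsab1, 0.42 for Cd200r3 and 0.17 for Ctsg. Fcer1a reached 39.7 in MC + Chemo 43, and 5 of these 7 genes had their highest value in that tumor. The IgE receptor chain that defines mast cells and basophils therefore peaked in the tumor with the highest proteases.

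Of the 11 listed growth factors and cytokines that act on mast cells, 7 were in the table. Tslp, an epithelial and stromal cytokine, had r 0.66 with Cpa3 (rho 0.71, adjusted p 0.004, 0.53 without the 2 farthest libraries) and Cxcl12, a chemokine of fibroblasts, had r 0.66 (rho 0.63, adjusted p 0.006, 0.56 without them). An r over 0.5 with Cpa3 was held by 3.54% of 12257 murine genes. Il33 had an r of 0.47 with Cpa3 (adjusted p 0.095), 0.57 within groups (adjusted p 0.024), and 0.32 without the 2 farthest libraries. Kitl, which encodes the KIT ligand stem cell factor, had 0.18 with Cpa3 and 0.31 with Kit, with adjusted p of 0.663 and 0.390. In MC + Chemo vs CTRL, Il33 had a log2 fold change of 0.68 and Tgfb1 of -0.59 (0.49 and -0.32 without CTRL 44). Of the 7, these alone had an unadjusted edgeR p under 0.05, against 12.4% of all genes, and none was called after adjustment.

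**Figure D4:**
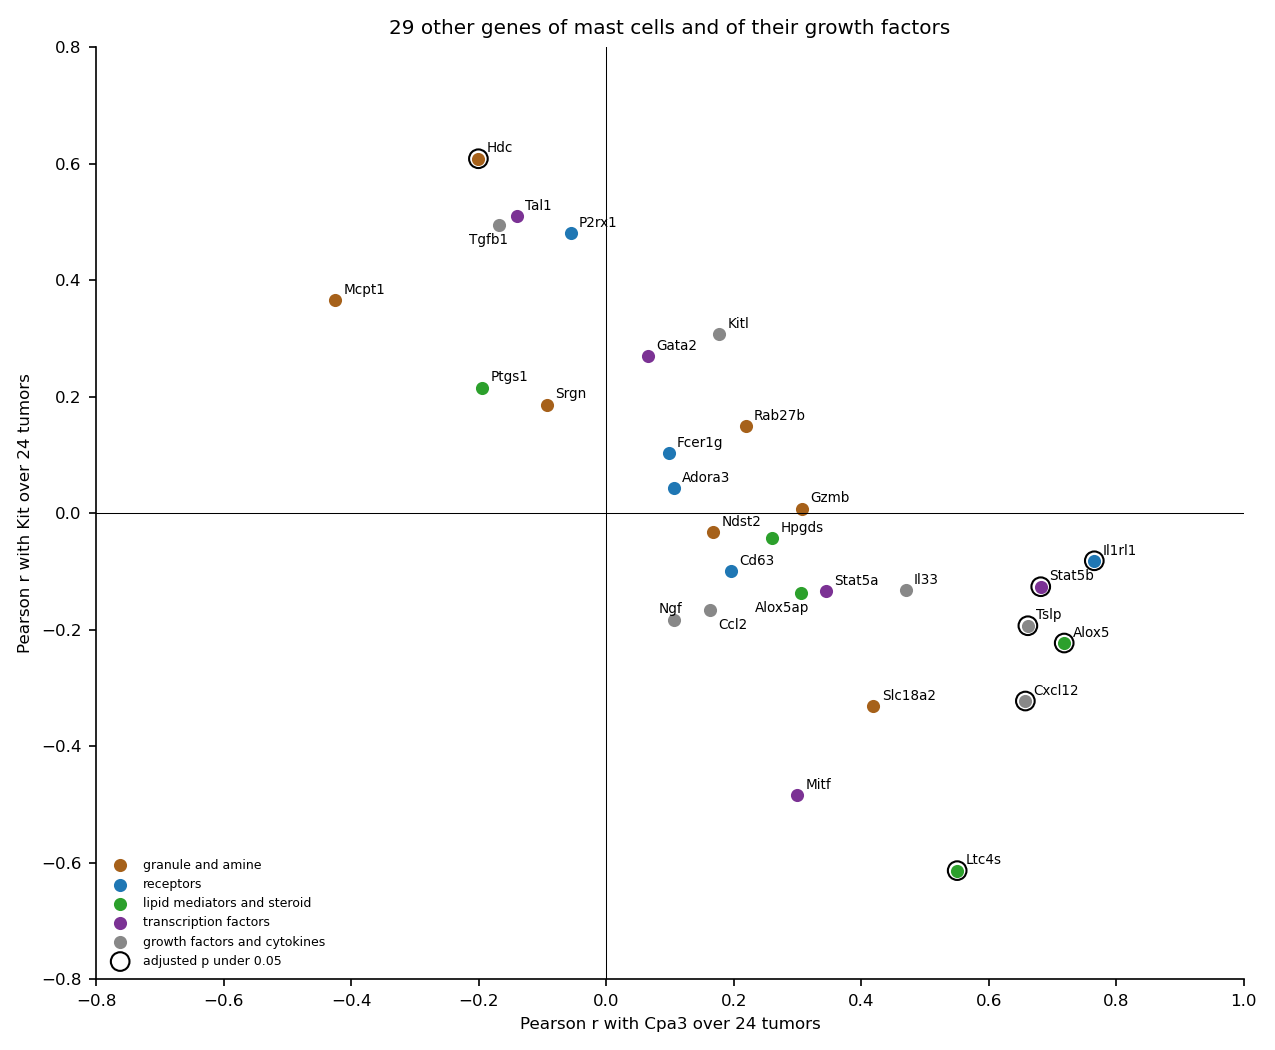
Pearson's r with Cpa3 (horizontal axis) and with Kit (vertical axis) over 24 tumors for 29 other genes, 22 of mast cells and 7 growth factors and cytokines, each with a mean normalized count of at least 10 and colored by list. Rings mark an adjusted permutation p under 0.05 with either gene, and the ringed genes at the right (Il1rl1, Alox5, Stat5b, Tslp, Cxcl12 and Ltc4s) have r of 0.55 to 0.77 with Cpa3 but not with Kit, except Ltc4s (-0.61).

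The genes most like the members by Pearson's r over the 24 libraries were sought as a description without a test. The search covered 12257 genes with a symbol and a mean normalized count of at least 10, with the 5 members left out. For the mean of the 5 standardised members they were Aldh1a2 (0.76), which makes retinoic acid, Il1rl1 (0.74), the transcription factor Maf (0.74), the calpain subunit Capn1 (0.74) and Palm (0.74). Only 2.40% of the genes had an r over 0.5. Outside the members, which were closer to one another, Cma1, Mcpt4 and Cpa3 each had Cd163, a scavenger receptor of tissue macrophages, as the nearest gene (0.81, 0.81 and 0.81). It was followed by Cd209d and Maf for Cma1 (0.79 and 0.79), Cd209b and Capn1 for Mcpt4 (0.80 and 0.79), and Maf and Cd209d for Cpa3 (0.81 and 0.79). Among the same genes Tpsb2 was nearest to Fcgrt, Capn1 and Palm (0.74, 0.73 and 0.71). Cd163 was at 289 in MC + Chemo 43 and 15.4 in MC + Chemo 25.

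Kit had other neighbours among the same genes. Its nearest genes were Nid2, a basement membrane nidogen (r 0.84, rho 0.84), Aplnr, the apelin receptor of endothelial cells (r 0.81, rho 0.62), and Mpzl1 (r 0.78, rho 0.64). Without CTRL 17 and MC + Chemo 52 the r were 0.77, 0.57 and 0.57. Nid2 was at 44.2 in CTRL 17 and 114.5 in MC + Chemo 52, the tumors lowest in Kit.

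Markers of other host tissues also varied from tumor to tumor. The summed normalized count of 10 skeletal muscle genes was over 1000 in 6 tumors, namely Chemo 30 (2404), MC 41 (38105), MC 48 (8365) and MC + Chemo 5 (40110), 43 (60447) and 47 (2131), and 82.9 to 673 in the other 18, with 98.7 to 155 in CTRL. In MC vs CTRL, MC + Chemo vs CTRL and MC + Chemo vs Chemo, all 10 muscle genes read higher at an unadjusted edgeR p under 0.05. Of all genes, 11.8%, 12.4% and 11% had such a p. The median log2 fold changes of the muscle genes were 6.42, 7.35 and 4.84, with 0 called after adjustment. Without those 6 tumors, MC + Chemo vs CTRL gave 0.44, 0.31, 0.22 and -0.07 for the proteases, and MC vs CTRL gave -0.30, 0.39, 0.25 and 0.08. These fits kept only MC + Chemo 25, 50 and 52 and MC 6, 42 and 59 of their groups. Of the tumors high in all 4 proteases, MC 48 and MC + Chemo 5, 43 and 47 were among those 6, while Chemo 34 and MC + Chemo 52 had muscle sums of 88.6 and 365. As the muscle sums fall into separate low and high tumors, no correlation over all 24 is given, and the part of muscle tissue in the protease values was not tested.

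Adipocyte genes also read higher in 3 of the comparisons. All 10 read higher in MC vs CTRL (median log2 fold change 2.81, 5 at an unadjusted edgeR p under 0.05), in MC + Chemo vs CTRL (2.69, 7) and in MC + Chemo vs Chemo (2.38, 5), with 0 called after adjustment. Of all genes, 11.8%, 12.4% and 11% had such a p. Without MC 41 none of the 5 genes in MC vs CTRL kept it. Without MC + Chemo 52 none of the 7 and of the 5 in the other comparisons did, a check added after the data had been seen. In MC + Chemo vs MC, where the proteases also had positive values, 5 of 10 read higher and the median was 0.01. The sum of 10 adipocyte genes ran from 598 to 11107 in CTRL, 1392 to 10881 in Chemo, 2393 to 110897 in MC, 1512 to 151307 in MC + Chemo and 1215 to 31186 in Lean, and none of the 10 was absent from the table. The r of the 4 proteases with the adipocyte score was 0.41 to 0.42 (rho 0.43 to 0.47, permutation p adjusted over 25 added relations 0.221), 0.34 to 0.37 within groups and 0.46 to 0.48 without CTRL 17 and MC + Chemo 52. The r with the fibroblast, macrophage and murine depth measures was 0.23 to 0.40, 0.21 to 0.35 and 0.20 to 0.37, with adjusted p of 0.221 to 0.440. None of these relations passed the adjustment, and the part of fat in the protease values was not tested.

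Kit varied with endothelial genes from tumor to tumor. Its r with the score of 10 endothelial genes was 0.72 (permutation p 0.00012, adjusted over the 25 relations 0.0030), with rho 0.51 (adjusted p 0.143) and 0.81 within groups. The sum of these genes was 642 in CTRL 17 and 1327 in MC + Chemo 52, the tumors lowest in Kit, and 2787 to 6512 in the other 22. Without those tumors r was 0.37 (p 0.0885 by permutation), so that the relation rests on them. The Lean tumors, highest in Kit, had endothelial sums of 4716 to 6512, beside 642 to 5028 in CTRL. The MC tumors, with the lowest mean of Kit, had 4826 to 5795. All 10 endothelial genes read higher in MC than in CTRL (median log2 fold change 0.56, 0 at an unadjusted edgeR p under 0.05, against 11.8% of all genes), while Kit had -0.16. The proteases had r of -0.19 to -0.37 with the same score, with adjusted p of 0.228 to 0.461.

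**Figure D5:**
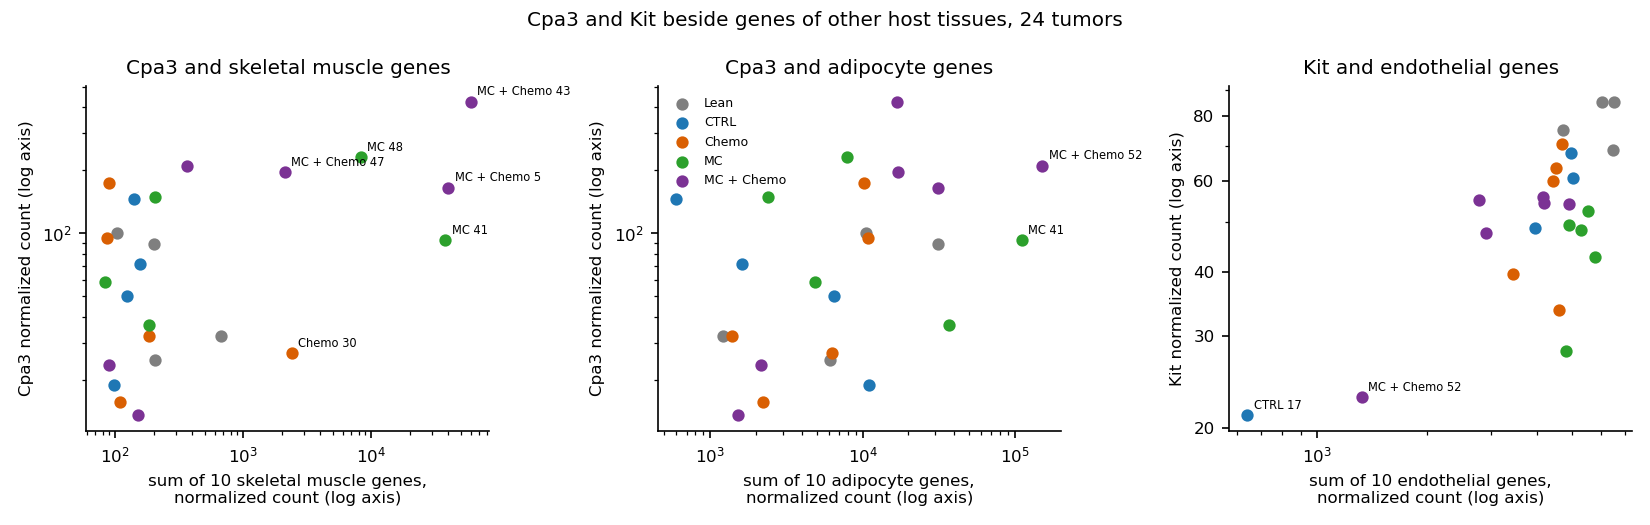
Normalized count of Cpa3 against the summed normalized counts of 10 skeletal muscle genes (left) and 10 adipocyte genes (middle), and of Kit against 10 endothelial genes (right), all on log axes, 24 tumors colored by group. The 6 tumors with muscle sums over 1000 ranked 1, 2, 4, 6, 11 and 19 of 24 for Cpa3, from 425.3 in MC + Chemo 43 to 26.7 in Chemo 30. CTRL 17 and MC + Chemo 52 hold the low corner for Kit and endothelial genes.

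Other cells that could carry these transcripts were checked by their markers. Of 5 basophil markers, Mcpt8 and Cd200r3 were in the table, and their sum was 0.936 to 124 with the highest value in MC 6, the MC tumor lowest in all 4 proteases. Of 7 melanocyte markers, Mlana alone was in the table, at 0 to 34.3 with the highest value in MC + Chemo 52, which was low in Kit. Of 7 blood progenitor markers, 6 were in the table, with median sums of 284.9 in Chemo, 133.3 in MC, 127.8 in MC + Chemo, 113.0 in Lean and 87.3 in CTRL. The highest sum, 580.4 in MC 41, held 519.7 of Hlf. In Chemo vs CTRL, 5 of the 5 that could be tested read higher (median log2 fold change 1.10, 2 at an unadjusted edgeR p under 0.05, against 4.53% of all genes). In MC + Chemo vs Chemo 4 of 5 read lower (median -0.37, 2 at an unadjusted edgeR p under 0.05, against 11% of all genes). Kit had values of 0.11 and -0.16 in these comparisons. Of 10 keratinocyte markers, 5 were in the table, and their sums had a median of 626.6 in MC + Chemo and of 408.0 to 459.8 in the other groups. The part of these cells in the member levels was not tested.

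In the human table CMA1, TPSB2 and TPSAB1 were not found by symbol. CPA3 had 89 human counts in all, was at 0 in 5 libraries and peaked at 24.5 in MC + Chemo 43, the tumor highest in murine Cpa3. Its r with murine Cpa3 was 0.77 (rho 0.74, permutation p adjusted over 2 relations 2e-05, 0.73 without the 2 farthest libraries, 0.76 without the libraries with extra cleanup). Human KIT had 772 counts, from 4.56 in CTRL 17 to 69.5 in MC + Chemo 47, and r 0.40 with murine Kit (rho 0.37, permutation p 0.0512). How reads were assigned to the human or the murine genome is not given in the sources used here.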

How the data were processed

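Tumor RNA of 24 mice in 5 groups was made into QuantSeq 3' libraries and read at 50 bp. The authors aligned and counted the reads with BlueBee software against GRCm38 for the mouse, per the study's methods and the submitters' processing notes, and deposited raw counts per gene and normalized signal, which is those counts divided by DESeq2 size factors (0.518 to 1.68, DESeq2 1.22.2 in the notes). No gene in the murine table has a total under 72. 2991 murine identifiers have no symbol. The deposited murine counts were fitted in R 4.3.3 with the quasi-likelihood method of edgeR 4.0.16 (with limma 3.58.1), under TMM scaling, filterByExpr and p-values adjusted by Benjamini-Hochberg over all genes tested. The 20 obese libraries were fitted together, and Lean vs CTRL used all 24. DESeq2 1.42.0 was the alternative. Single genes were compared with two-sided exact permutation tests of log2(normalized count + 1), and correlations with 100000 permutations (Python 3.11.15, numpy 2.4.6, pandas 2.3.3). The scripts were tested on simulated data. The 24 libraries are separate mice, and 0 pairs were identical.

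The members and lists were chosen with earlier results of these data known. Named genes were the 5 members, listed mast cell genes with a mean normalized count of at least 10, the 5 genes nearest the mean of the members, the 3 nearest each member, and human counterparts. Listed genes under that mean, Cd163 and Nid2 levels, and list genes at an unadjusted p under 0.05 were given after their values were seen. With 4 to 6 tumors a group and protease counts as low as 1 per library, the precision of a protease fold change is an SE of 0.72 to 1.18 on the log2 scale. Alternatives were other scalings, no filter, other sets of libraries, the label of MC + Chemo 5, the RNA cleanup, each library left out, and other pseudocounts.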

Additional observations from a re-analysis of the deposited data

Results flagged for a closer look

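Kit in MC + Chemo 52 was at 22.9 normalized counts while the other 5 tumors of the group were at 47.5 to 55.7. The gap to the nearest tumor was 0.752 of the group's range, above Dixon's critical value of 0.625 for 6 samples. Of the 25 sets formed by the 5 genes and 5 groups, all of 4 to 6 tumors, this was the 1 set with such a sample, and chance gives about 1 in 20. The same tumor had 314.3 of Cma1 and an endothelial sum of 1327, the lowest but for CTRL 17. The cause was not tested.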

How the results depend on the processing

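No paired analysis was possible because replicate numbers are mouse numbers and the groups compared share none. No member was called in any comparison under any alternative. Over the alternatives that keep or drop whole sets of libraries, 407 of 435 fold changes kept their direction and side of the threshold and 28 changed sign, with a lowest adjusted p of 0.344 (edgeR or DESeq2, or the exact permutation test). The reversed log2 values were, with upper quartile scaling, 0.0088 for Cpa3 in Chemo vs CTRL. By exact permutation (pseudocounts 1 and 10) they were 0.024 and 0.0092 for Kit in MC + Chemo vs CTRL, -0.48 and -0.10 for Mcpt4 and -0.12 and -0.0052 for Tpsb2 in MC + Chemo vs MC, and 0.15 and 0.036 for Mcpt4 and 0.23 and 0.088 for Tpsb2 in Lean vs CTRL. With MC + Chemo 5 taken as MC, Kit was -0.0082 in MC + Chemo vs MC and -0.11 in the difference of moringa effects, where it was -0.051 with that tumor left out, -0.078 with the cleaned libraries left out and -0.083 with cleanup as a covariate. Without the 6 tumors high in muscle genes, they were 0.16 for Cpa3 and 0.094 for Tpsb2 in Chemo vs CTRL, -0.30 for Cma1 in MC vs CTRL, -0.071 for Tpsb2 in MC + Chemo vs CTRL, -0.17 for Tpsb2 in MC + Chemo vs Chemo, -0.076 for Mcpt4, -0.030 for Cpa3, -0.15 for Tpsb2 and -0.19 for Kit in MC + Chemo vs MC, and -0.19 for Cpa3, -0.25 for Tpsb2 and -0.42 for Kit in the difference of effects. The fits without those 6 tumors left only MC + Chemo 25, 50 and 52 in that group, of which 25 and 50 were low in all 4 proteases. The cause of these reversals was not tested.

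Leaving out single libraries kept 350 of 390 and reversed 40, with a lowest adjusted p of 0.277. The ranges that crossed 0 were, for Chemo vs CTRL, -1.22 to 0.43 for Cma1, -0.74 to 0.60 for Cpa3, -0.77 to 0.24 for Tpsb2 and -0.15 to 0.31 for Kit. For Lean vs CTRL they were -0.86 to 0.31 for Cma1, -0.48 to 0.41 for Mcpt4, -0.51 to 0.44 for Cpa3 and -0.57 to 0.18 for Tpsb2. They were -0.14 to 1.23 for Cma1 and -0.43 to 0.043 for Kit in MC vs CTRL, -0.32 to 0.15 for Kit in MC + Chemo vs CTRL, -0.015 to 0.26 for Kit in MC + Chemo vs MC, and -0.016 to 1.31 for Cpa3 and -0.21 to 0.26 for Kit in the difference of effects. In MC + Chemo vs Chemo the proteases stayed positive, from 0.81 for Tpsb2 without MC + Chemo 43 to 2.45 for Cma1 without Chemo 34. CTRL 17 and CTRL 70 gave most of the extremes of the comparisons with CTRL. Of the genes nearest the mean of the members, 3 of 5 were the same with Spearman's rho and 3 of 5 within groups. For the 3 genes nearest each member, the same with rho and within groups were 1 and 1 for Cma1, 0 and 0 for Mcpt4, 1 and 1 for Cpa3, 2 and 0 for Tpsb2 and 1 and 1 for Kit. Within groups, Il33 and Mcpt1 with Cpa3 and Tal1 with Kit passed the adjustment, which they did not over all libraries. Mcpt4 had 1 count in its lowest library.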
